A study of Macaca mulatta with 2 samples.

Results

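CD8-tag-only T cells made up a small share of a blood sort that was meant to hold CD4+CD8+ double positive (DP) T cells. They were chosen by measured values, as cells with a low count of the *CD4* antibody tag and a high count of the CD8 antibody tag. A tag is a DNA barcode on an antibody, and its molecules are counted per cell as unique molecular identifiers (UMIs), in the same way as the RNA. The rule started from QC cells, in which 200 to 4000 genes were detected and mitochondrial genes took no more than 20% of UMIs. It took those with a CD4 tag of at most 191 UMIs, a CD8 tag above 330 UMIs, at least 1 UMI of *CD3E*, which encodes a chain of the T cell receptor (TCR) complex, and no UMI of the B cell genes *MS4A1* and *CD79B*. It found 183 of 7601 QC cells (2.41%). Among the 7311 QC cells with a *CD3E* UMI the share was 2.503% (95% Clopper-Pearson interval 2.16 to 2.89). In all, 206 QC cells lay in the same tag range, of which 20 had no *CD3E* UMI and 3 had *CD3E* together with a B cell gene.

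The blood came from 1 healthy, untreated rhesus monkey aged 6 years, and the series holds 1 sorted sample with 2 libraries, one for RNA and one for the CD4 and CD8 tags. CD4+ cells were taken from mononuclear cells with releasable magnetic beads, and CD8+ cells were then taken from them with CD8 beads. With 1 animal there were no replicates and no test was possible, so the exact 95% intervals given here cover counting error only. The comparison group was 3592 *CD3E*+ QC cells above both tag limits, and 3270 above the CD4 limit alone and 263 above neither are mentioned where they help.

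The CD8 coreceptor is built from alpha and beta chains, encoded by *CD8A* and *CD8B*. Conventional cytotoxic T cells, which read peptides on MHC class I, carry the alpha-beta form, whereas gamma-delta T cells, NK cells and some activated CD4+ T cells can carry alpha chains alone. The tag antibody bound the alpha chain, so the tag count does not tell these forms apart, and the mRNA of *CD8B* was not used by the rule. Killer cell immunoglobulin-like receptors (KIR) and killer lectin-like receptors are MHC class I receptors and their relatives, known from NK cells and from a part of the effector CD8+ T cells.

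The 183 cells held 587108 gene UMIs, with a median of 3095 UMIs (513 to 7154) and 1187 genes per cell. Cells with both tags were deeper, with a median of 4085 UMIs per cell. The medians that follow from the rule were 119 UMIs of the CD4 tag and 674 of the CD8 tag in CD8-tag-only cells, against 437 and 559 in cells with both tags. Background was read from 86 QC cells that carried 3 or more B cell gene UMIs but lacked *CD3E*, *CD3D* and *CD3G* (B gene cells). In them, these medians were 90 and 139.5 at a median depth of 4137.5 gene UMIs. Levels are given in CPM, the UMIs of a gene summed over the cells of a group and scaled to the group's total of gene UMIs. The B gene cells also held markers of monocytes and plasmacytoid dendritic cells. For genes of those cell types they are therefore no plain measure of background. Because the share of cells in which a gene is detected grows with depth, shares were repeated after each cell was thinned at random to 2000 UMIs, which kept 168 of the 183 cells and 3475 of the 3592.

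**Figure D1:**
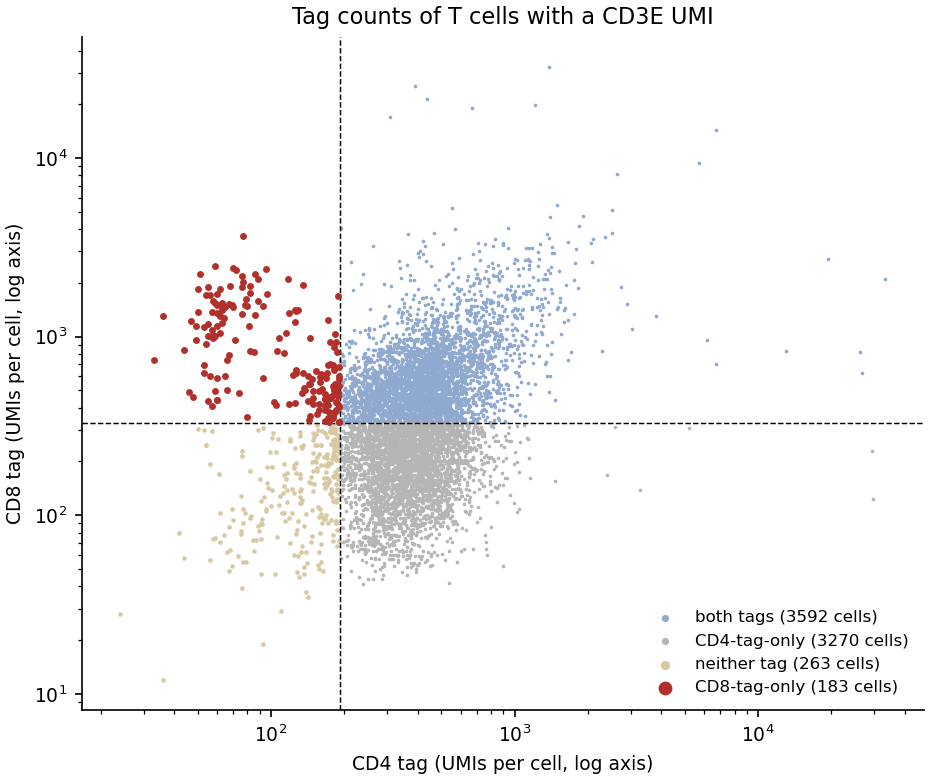
CD4 tag against CD8 tag (UMIs per cell, both axes logarithmic) for *CD3E*+ QC cells, 1 point per cell, with dashed lines at the limits of 191 and 330 UMIs. The 183 CD8-tag-only cells (red) fall into a spread of cells with a CD4 tag below 100 and a CD8 tag often above 1000, and a crowd near the corner where both limits meet.

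The 183 cells were not evenly spread over the range allowed by the rule. There were 82 with a CD4 tag of at most 95.5 UMIs, which is the limit divided by 2, and their median CD8 tag was 1305 UMIs. The other 101 had a median CD8 tag of 502 UMIs, near the median of 469 in the 557 cells whose CD4 tag lay just above the limit, at up to 286 UMIs. Like the CD8-tag-only cells, these 557 were taken without a UMI of *MS4A1* or *CD79B*. Within 10% of the CD4 limit, 47 cells inside (172 to 191 UMIs) had 19 *CD4* mRNA UMIs (136 CPM) and 5 of *CD8B* (35.7 CPM), and 63 cells outside (192 to 210) had 44 (222 CPM) and 0. Within 10% of the CD8 limit, 14 cells inside (331 to 361 UMIs) had 9 *CD8A* UMIs (224 CPM), and 14 outside (298 to 329) had 4 (83.3 CPM).

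As a check of the label, the T cell genes were read first. *CD3D* had a UMI in 170 of the 183 cells, *CD3G* in 139 and *TRAC*, the constant gene of the TCR alpha chain, in 112, while 180 had *CD3D* or *CD3G*. *CD8A* had a UMI in 130 cells (71.0%), *CD8B* in 58 (31.7%) and *EOMES*, a transcription factor of effector and memory CD8+ T cells and NK cells, in 27 (14.8%). The name T cells thus rests on *CD3E*, which the rule required, and on *CD3D* or *CD3G* in nearly all members, with *TRAC* in fewer. *CD8B* and *EOMES* were each detected in a minority. Of 7 NK cell markers found by name, *NCAM1* was at 0 and *FCGR3* had 1 UMI. The summed level of that list was 463 CPM against 167 in cells with both tags, with *TYROBP* as its most abundant gene at 257 CPM. Of 9 B cell markers, 6 were at 0, 2 of them (*MS4A1* and *CD79B*) by the rule. All 9 summed to 17.0 CPM, led by *CD79A*, against 118 in cells with both tags. Cells with *MS4A1* or *CD79B* were kept in that comparison group, so these sums are not a like comparison. In the cells with both tags just above the CD4 limit, from which cells with *MS4A1* or *CD79B* were left out as well, the sum was 9.51 CPM. Of 8 monocyte markers, 5 were at 0 and the sum was 5.11 CPM. Plasmacytoid dendritic cell and platelet markers summed to 1.70 CPM each, and cycling cell markers to 11.9 CPM, led by *MKI67*, against 30.4. Globin RNA was higher than in all cells with both tags, with *HBA* at 88.6 CPM (66.1 to 116) against 39.9. Red blood cell markers summed to 92.0 CPM against 40.4. Their sum was 105 CPM in the cells with both tags just above the CD4 limit and 8910 in cells with neither tag. The part of RNA from other cells in the results was not tested.

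*CD8B*, which the rule did not use, lies on chromosome 13 of Mmul_10 from 19024595 to 19067848, and *CD8A* lies at 19092978 to 19100027. *CD8B* had 184 UMIs in the 183 cells, 313 CPM (270 to 362), against 257 UMIs in the 3592 cells with both tags, 15.3 CPM (13.4 to 17.2), and 4.01 CPM in cells with the CD4 tag alone. The log2 ratio over cells with both tags was 4.36 (4.08 to 4.64). Although they were 2.503% of *CD3E*+ cells, they held 36.4% of the 506 *CD8B* UMIs of those cells. A *CD8B* UMI was found in 31.7% of them (25.0 to 39.0) and in 4.98% of cells with both tags, and in 30.4% and 2.10% after thinning. The share in the B gene cells was 1.16%.

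*CD8A*, the gene of the chain that the tag reads, differed less. It had 276 UMIs, 470 CPM (416 to 529), against 250 CPM in cells with both tags, a log2 ratio of 0.91 (0.73 to 1.09), and 57.9 CPM in cells with the CD4 tag alone. After thinning it was found in 58.3% of CD8-tag-only cells and 36.4% of cells with both tags. Both *CD8A* and *CD8B* were detected in 49 of the 183 cells (26.8%), *CD8A* alone in 81 (44.3%), *CD8B* alone in 9 and neither in 44. In cells with both tags, which were deeper, *CD8A* alone was found in 54.4% and both genes in 3.90%. *CD4* mRNA, from chromosome 11 at 6953431 to 6986331, was present in the CD8-tag-only cells at 51 UMIs, 86.9 CPM (64.7 to 114), against 176 CPM (169.7 to 182.5), a log2 ratio of -1.02 (-1.45 to -0.62). It was found in 36 cells (19.7%), against 53.3% of cells with both tags and 3.49% of B gene cells, and after thinning in 13.7% against 29.8%.

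All 51 *CD4* mRNA UMIs lay in the 101 cells of the upper CD4 tag range, at 165 CPM (123 to 217), which was close to cells with both tags (log2 ratio -0.09). The 82 cells with the lower CD4 tag had 0 *CD4* mRNA UMIs, which at 3 counts over the group allows a level of up to 10.8 CPM. That level is 15.3-fold below the point value of 165 CPM in the upper range, a fold that leaves out the interval of that value. *CD8B* ran the other way, with 572 CPM (487 to 669) in the lower and 80.8 CPM (52.3 to 119) in the upper range, a log2 ratio of 2.82 (2.21 to 3.49). In the lower range 46 of 82 cells had a *CD8B* UMI and 60 had a *CD8A* UMI. The upper range, the larger of the 2, thus had *CD4* mRNA near its level in cells with both tags and less *CD8B* than the lower range, though more *CD8B* than cells with both tags (log2 ratio 2.41).

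All cells above the CD8 limit were then split more finely by CD4 tag, leaving out cells with B cell genes. The bins up to the CD4 limit hold the same CD8-tag-only cells, so they show the counts above in finer steps. *CD8B* was at 487 CPM (293 to 761) in 10 cells with up to 50 CD4 tag UMIs, at 575 (484 to 678) in 73 cells with up to 100 and at 168 (99.7 to 266) in 33 cells with up to 150. It was at 35.4 (14.2 to 73.0) in the last 67 members and at 22.4 (13.9 to 34.3) in the next 293 cells beyond the limit, 2 bins whose intervals overlap. *CD4* mRNA was at 0 in the first 2 bins, at 121 CPM (64.7 to 208) in the next and at 192 (136 to 264) in the last members, and stayed between 177 and 181 CPM in each of the 4 bins of cells with both tags. *EOMES* was at 103 and 127 CPM in the first 2 bins and at 18.7 and 20.3 in the other members.

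**Figure D2:**
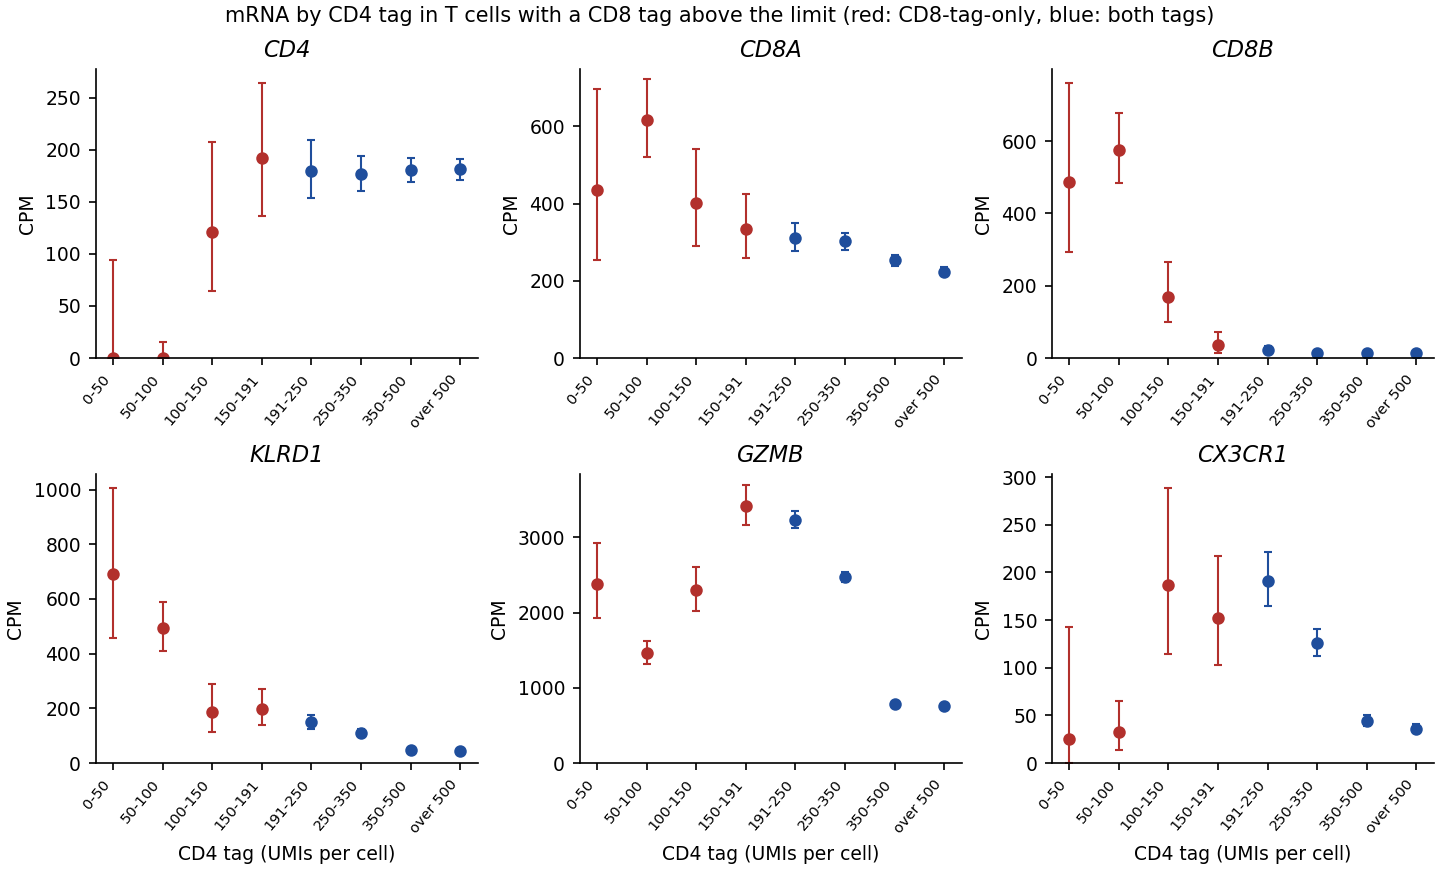
Level (CPM) of 6 genes by CD4 tag (UMIs per cell) in *CD3E*+ cells with a CD8 tag above 330 and no B cell gene, in CD8-tag-only cells (red) and cells with both tags (blue). Points are the summed counts of each bin and bars exact Poisson 95% intervals. *CD8B* and *KLRD1* are high at the lowest CD4 tags, where *CD4* mRNA is at 0, and *GZMB* and *CX3CR1* are high on both sides of the limit of 191.

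The genes were compared across the whole transcriptome, as log2 of (CPM + 10) in CD8-tag-only cells over the same in cells with both tags, for 4764 genes with a mean of at least 20 CPM. At least 2-fold higher were 54 of them (1.13%), and at least 2-fold lower were 29 (0.609%). The median over all genes compared was 0.10. Ratios of single genes are given without the added 10 CPM. Against cells with the CD4 tag alone, a comparison that shares the CD8-tag-only cells with the first, 48 of 4765 genes were at least 2-fold higher (1.01%) and 14 lower (0.294%). The 15 named genes highest by this measure were *CD8B*, *TRDV3*, *CTSW*, *FGR*, *ITGAX*, *KLRD1*, *CCL5*, *CMC1*, *TRGV9*, *EOMES*, *GNLY*, *SIGLEC6*, *GZMM*, *PRF1* and *PIK3AP1*. Of these, *CD8B*, *TRDV3*, *TRGV9*, *FGR*, *ITGAX*, *EOMES*, *SIGLEC6* and *PIK3AP1* were below 20 CPM in cells with both tags, so that they reached the level filter through the CD8-tag-only cells.

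**Figure D3:**
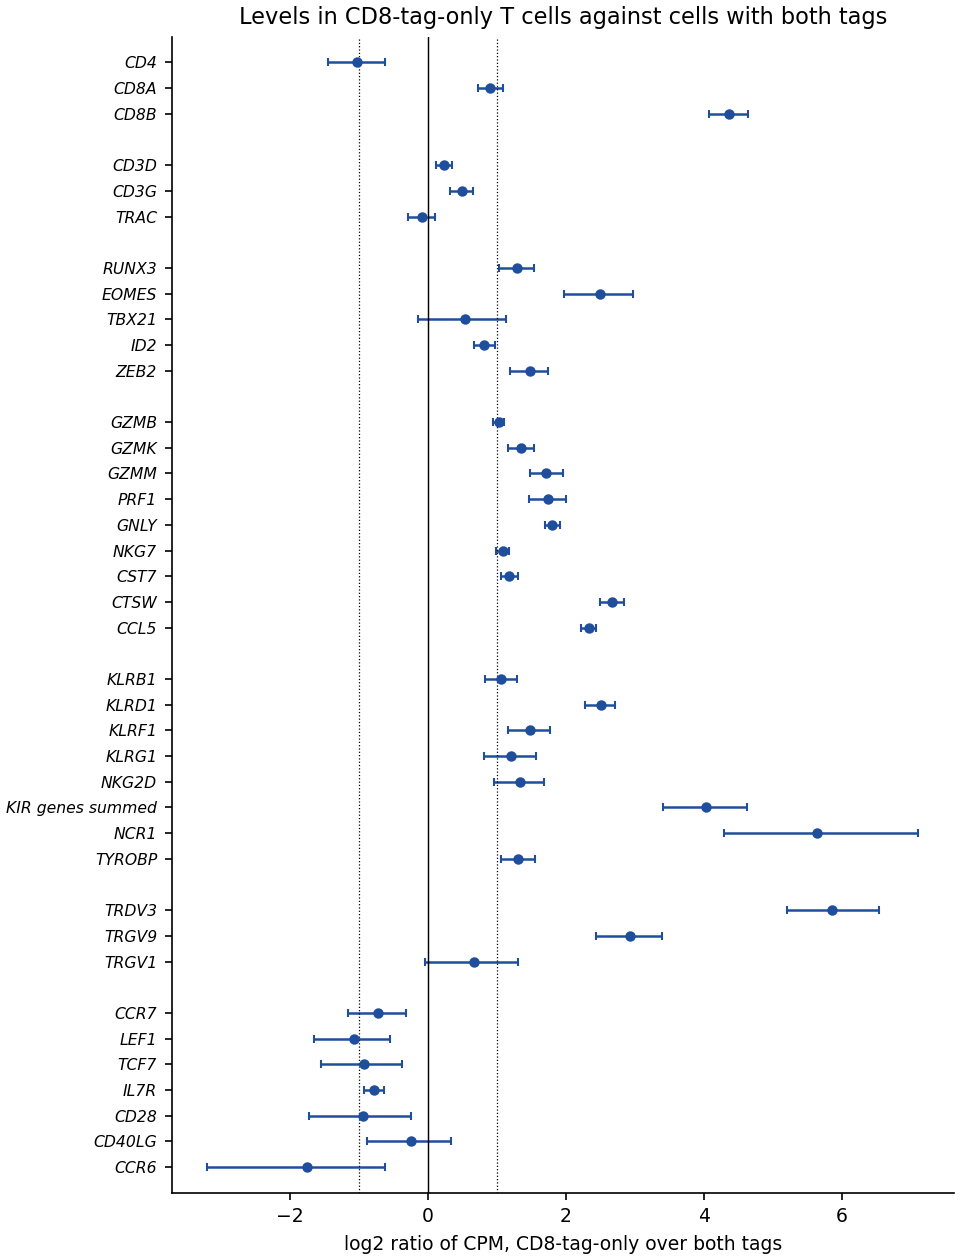
Log2 ratio of CPM in CD8-tag-only T cells over cells with both tags for genes of the lists, with exact 95% intervals from the binomial split of both counts (counting error only), a solid line at 0 and dotted lines at 2-fold. Ratios of *NCR1* (5.65) and *TRDV3* (5.87) rest on few cells, and *CD8B* (4.36) on 184 and 257 UMIs.

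Genes of granules and effector function were higher than in cells with both tags as a whole, and the difference was smaller against those just above the CD4 limit. Of 10 granule and effector genes that passed the level filter, 9 were at least 2-fold higher and the other, *SRGN*, the proteoglycan core of granules, stayed within 2-fold (log2 ratio 0.31). Of all genes 1.13% were as much higher. The median of the 10 was 1.46 beside 0.10 over all genes, and 5 other genes of that list (among them *GZMA*, *IFNG* and *FASLG*) were too low for the comparison. *GZMB*, which encodes the protease granzyme B, had 1372 UMIs, 2337 CPM (2215 to 2464), against 1143 CPM, a log2 ratio of 1.03 (0.95 to 1.11), and was found in 67.8% of cells against 44.2% (thinned 66.7% and 41.0%) and in 8.14% of B gene cells. *GNLY*, which encodes the pore-forming granulysin, was at 1216 CPM (1129 to 1309) against 347, a log2 ratio of 1.81 (1.70 to 1.92). *PRF1*, the gene of perforin, was at 230 CPM (193 to 272) against 68.7. *CTSW*, a cathepsin of cytotoxic lymphocytes, was at 589 CPM (529 to 655) against 92.1, and the chemokine gene *CCL5* at 1312 CPM (1220 to 1408) against 260. The list summed to 10957 CPM in the CD8-tag-only cells and 4911 in all cells with both tags, but to 9758 in the 557 of these just above the CD4 limit. In those 557 cells *GZMB* was at 3065 CPM (2985 to 3148), above its level in the CD8-tag-only cells, whereas *GNLY* was at 548 (514 to 584), *CCL5* at 615 (580 to 653) and *CTSW* at 148 (131 to 167). Against cells with the CD4 tag alone, 5 of the 10 genes were at least 2-fold higher, beside 1.01% of all genes.

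Within the CD8-tag-only cells these genes did not go together. *GZMB* was higher in the upper CD4 tag range, at 2981 CPM (2792 to 3180) against 1620 (1474 to 1777) in the lower, whereas *CTSW* was at 265 against 950, *GZMM* at 136 against 436, *GZMK* at 246 against 666 and *GNLY* at 737 against 1749. *PRF1* was at 191 CPM (145 to 246) in the upper and 274 (216 to 342) in the lower range, and *CST7*, which encodes the inhibitor cystatin F, at 1009 and 990. *CX3CR1*, a chemokine receptor of effector cells that patrol blood, was at 162 CPM (120 to 213) in the upper range and 32.4 (14.8 to 61.5) in the lower. It was higher than in cells with both tags over all 183 cells (log2 ratio 0.76, 0.35 to 1.14) but lower in the 82 cells of the lower range (-0.88). The *GZMB* ratio was likewise 0.50 there and 1.38 in the upper range.

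Among the transcription factors of the CD8 and effector lineage, 3 of 6 compared were at least 2-fold higher and none at least 2-fold lower, with a median of 1.01 for the list, beside 1.13% of all genes that were as much higher. The list summed to 1291 CPM against 624, and to 1147 in the 557 cells with both tags just above the CD4 limit. *ZEB2* and *RUNX3* were at 212 CPM (191 to 234.5) and 195 (175 to 217) in those 557 cells, within the intervals of the CD8-tag-only cells, and *EOMES* at 8.95 (5.12 to 14.5). *EOMES* is one of the 3, and it reached the level filter through the CD8-tag-only cells alone. *EOMES*, on chromosome 2 from 20018480 to 20025222, had 41 UMIs in 27 cells, 69.8 CPM (50.1 to 94.7), against 12.4 CPM, a log2 ratio of 2.49 (1.97 to 2.98). Of its 27 cells, 23 lay in the lower CD4 tag range. *RUNX3*, a regulator that keeps CD4 silent in CD8+ T cells, was at 228 CPM (191 to 270) against 93.1, and unlike *EOMES* it was not lower in the upper range, at 272 CPM (217 to 336) against 180 (134 to 237). *ZEB2*, a factor of terminal effector cells, was at 211 CPM against 75.8, and *TBX21*, which encodes T-bet, at 39.2 (24.8 to 58.8) against 27.0. *ZBTB7B*, the factor of the CD4 lineage known as ThPOK, had 11 UMIs, 18.7 CPM, against 15.5 (log2 ratio 0.27, -0.75 to 1.13). The 3 compared genes of the CD4 and helper factor list, *GATA3*, *TOX* and *RORA*, stayed within 2-fold.

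KIR genes were rare, and a large part of their UMIs came from these cells. Of 5 KIR features with a name, 4 had a UMI, and *KIR3DL2* was at 0 in both groups. Summed over KIR genes there were 37 UMIs in 15 of the 183 cells, 63.0 CPM (44.4 to 86.9), and 65 UMIs in 42 of 3592 cells with both tags, 3.86 CPM (2.98 to 4.92), a log2 ratio of 4.03 (3.41 to 4.63). The CD8-tag-only cells thus held 31.1% of the 119 KIR UMIs of *CD3E*+ cells. *KIR3DH* had 21 UMIs in 10 cells, up to 7 in 1 cell, against 33 in 25 cells, a log2 ratio of 4.19 (3.33 to 5.02). *KIR3DL12* had 11 UMIs in 8 cells against 16 in 13, a ratio of 4.30 (3.05 to 5.50). *KIR2DL4*, from chromosome 19 at 54555078 to 54564341, had 3 UMIs in 2 cells against 16 in 12, a ratio of 2.43 (0.01 to 4.23), and *KIR3DL0* had 2 UMIs in 1 cell against 0. After thinning, 7.14% of CD8-tag-only cells and 0.662% of cells with both tags had a KIR UMI, beside 1.16% of the B gene cells unthinned. KIR genes are near-identical copies in a family that varies between animals, so which of them a UMI was assigned to is uncertain, and no KIR gene reached the level filter.

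Most cells with a KIR UMI also had *CD8B*. Of the 15 cells with a KIR UMI, 12 did so, which is 12 of the 58 cells with *CD8B*, and 0 had *CD4* mRNA. Their median CD8 tag was 1621 UMIs and their median CD4 tag 70. All 15 had a UMI of *GNLY*, at 4312 CPM (3751 to 4933), and of *CCL5*, at 3437 CPM (2939 to 3997), and 11 had *CMC1*, at 1037 CPM. *CCR7*, a homing receptor of naive and central memory cells, was at 0 in them.

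All 5 killer lectin-like genes compared were at least 2-fold higher, as were 1.13% of all genes, with a median of 1.18 beside 0.10 over all genes. The list summed to 1051 CPM against 361, and to 651 in the 557 cells with both tags just above the CD4 limit. *KLRD1*, which encodes CD94, the partner of NKG2 receptors, was at 351 CPM (305 to 402) against 61.8, a log2 ratio of 2.51 (2.28 to 2.72), and was found in 48.1% of cells against 15.7% (thinned 39.9% and 9.84%) and in 0 of the B gene cells. *KLRF1* was at 170 CPM against 61.1, *KLRB1*, the gene of CD161, at 298 against 142, *NKG2D*, an activating receptor gene, at 124 against 49.3 and *KLRG1* at 107 against 46.5. *KLRB1* was detected in like shares of unthinned cells, 25.1% against 25.0%, and in 22.6% against 17.8% after thinning. *NCR1*, which encodes the NK receptor NKp46, had 14 UMIs in 14 cells against 8 in 6 of 3592 (log2 ratio 5.65, 4.30 to 7.11) and 0 in cells with the CD4 tag alone. *TYROBP*, the gene of the adaptor DAP12, was at 257 CPM (218 to 302) against 103, and was found in 22.4% of cells against 18.4% (thinned 20.8% and 11.8%). Its share in the B gene cells, which also held monocyte and plasmacytoid dendritic cell markers, was 33.7%. *FCER1G*, another adaptor gene, had 5 UMIs in 2 cells. *KLRF1*, *NCR1* and *TYROBP* belong to the NK marker list as well, of which *NCAM1* was at 0 and *FCGR3* had 1 UMI in these *CD3E*+ cells.

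*FGR*, a SRC family kinase gene of myeloid and NK cells, had 30 UMIs in 21 cells, 51.1 CPM (34.5 to 72.9), against 25 UMIs in 17 of 3592 cells, a log2 ratio of 5.11 (4.29 to 5.93). *ITGAX*, which encodes the integrin CD11c, had 37 UMIs in 20 cells, 63.0 CPM, against 4.45, a ratio of 3.82 (3.21 to 4.41). Of the cells with *FGR*, 17 had *CD8B*, and 18 of the 21 lay in the lower CD4 tag range. The shares of cells with a UMI were 11.5% for *FGR* and 10.9% for *ITGAX* (thinned 7.74% and 6.55%), beside 8.14% and 10.5% of the B gene cells (thinned 3.80% and 6.33%). These B gene cells held monocyte and plasmacytoid dendritic cell markers at 113 and 461 CPM and *ITGAX* at 37.8 CPM, so they are no measure of free RNA for such genes. *SIGLEC6* was at 44.3 CPM against 7.48. The monocyte genes *LYZ*, *S100A9*, *FCN1*, *VCAN* and *CSF1R* were at 0 in the 183 cells. *IL2RB*, a chain of the receptors for IL-2 and IL-15, was at 230 CPM (193 to 272) against 82.6.

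The named TCR variable segments were 25 of the alpha, 21 of the beta, 2 of the gamma and 1 of the delta chain, so the detection of alpha-beta and gamma-delta segments cannot be compared with each other. *TRAC* was at 370 CPM (322 to 422) against 392, a log2 ratio of -0.09 (-0.29 to 0.11), so a difference in its level was not detectable at this depth. A TRAV segment had a UMI in 98 of the 183 cells (53.6%, 46.0 to 60.9) against 59.8% of cells with both tags, and a TRBV segment in 71 (38.8%, 31.7 to 46.3) against 47.6%. A TRGV segment had a UMI in 22 cells (12.0%, 7.69 to 17.6) against 8.94%, and these shares are all of cells that were not thinned. Of 49 variable segments with a name, 40 had a UMI in the CD8-tag-only cells. In these or the cells with both tags, 47 had one, but the groups held 183 and 3592 cells, so these counts are not a like comparison. *TRDV3* and *TRGV9* reached the level filter through the CD8-tag-only cells alone, where they were high, and *TRBV5-1*, *TRBV7-2*, *TRBV11-1* and *TRAV21*, which were at least 2-fold lower, reached it through the cells with both tags. *TRAV19* was found in 32 of them (17.5%, 12.3 to 23.8) against 11.6% (thinned 14.9% and 8.26%), *TRAV12-2* in 20 (10.9%, 6.80 to 16.4) against 9.33%, and *TRAV12-3* in 13. The most frequent beta segments, *TRBV27* and *TRBV29-1*, were each in 9 cells. *TRBV29-1* was in 9 cells of the upper and 0 of the lower CD4 tag range, and *TRAV12-2* in 17 of the upper and 3 of the lower. *TRAV20* had 0 UMIs in the 183 cells and was found in 96 of 3592 cells with both tags, which were deeper. Variable segments are similar to each other and the RNA reads cover them in part, so the assignment to single segments is uncertain.

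*TRDV3*, a variable segment of the TCR delta chain, stood out. It had 61 UMIs, 104 CPM (79.5 to 134), but in 7 cells, with up to 17 UMIs in 1 cell, against 30 UMIs in 7 of 3592 cells with both tags, a log2 ratio of 5.87 (5.21 to 6.55). The share of cells was 3.83% (1.55 to 7.72) against 0.195% (0.0784 to 0.401), or 3.57% against 0.115% after thinning, and 61.0% of its 100 UMIs in *CD3E*+ cells lay in the 183 cells. *TRGV9*, a gamma chain segment, had 48 UMIs in 11 cells (6.01%, 3.04 to 10.5) against 84 cells (2.34%), or 5.95% against 1.53% after thinning, a log2 ratio of 2.94 (2.45 to 3.40). *TRGV1* was found in 11 cells (6.01%) against 6.82% (thinned 4.17% and 3.71%). No cell had both *TRDV3* and *TRGV9*, and the constant genes of the gamma and delta chains were not analysed here.

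**Figure D4:**
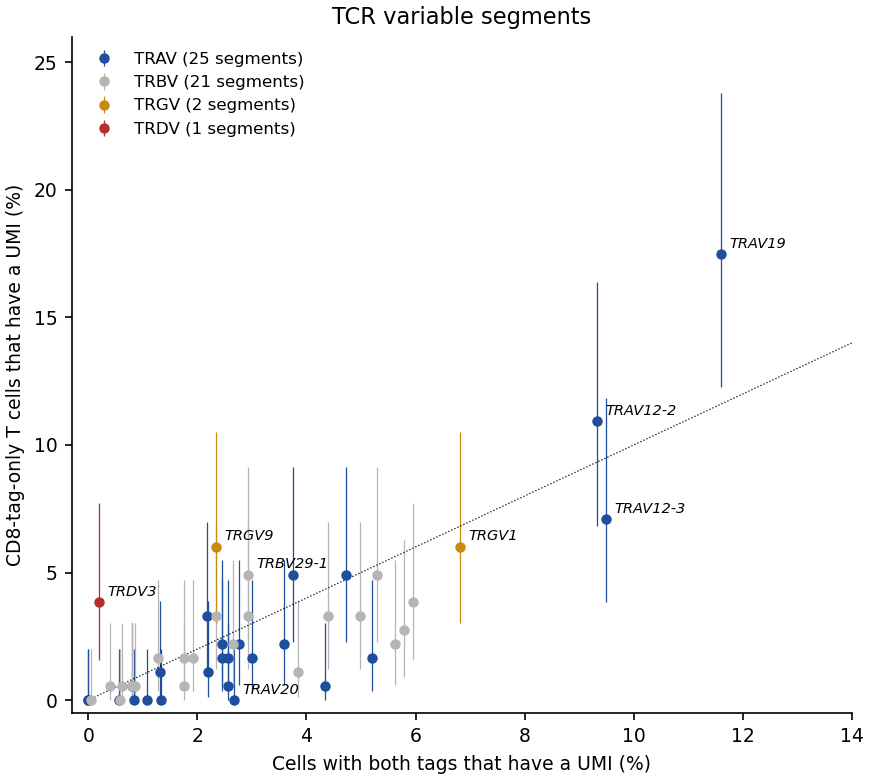
Share of cells with a UMI of each of 49 named TCR variable segments, in cells with both tags (horizontal axis, %) and in CD8-tag-only T cells (vertical axis, %), with exact Clopper-Pearson 95% intervals on the vertical axis and a dotted line of equal shares. *TRDV3*, at 3.83% against 0.195%, lies far above the line, and *TRAV19* is the most frequent segment in both groups.

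The feature ENSMMUG00000057791, which has no symbol, had 70 UMIs in 20 of the 183 cells, 119 CPM, against 4.75, and was found in all 7 cells with *TRDV3* and in 9 of the 11 with *TRGV9*, but in 0 of the 58 with *CD8B*. A second one, ENSMMUG00000060293, had 39 UMIs in 15 cells against 10 UMIs in 5 of 3592 cells. Of 167 features without a symbol that were compared, 8 were at least 2-fold higher and 0 at least 2-fold lower, beside 1.13% and 0.609% of all genes. ENSMMUG00000057791 and ENSMMUG00000060293 were below 20 CPM in cells with both tags. They reached the level filter through the CD8-tag-only cells, where they were high, so the count of 8 depends in part on the filter.

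The CD8-tag-only cells were therefore described once more by the mRNA detected in them, with sets chosen after their values had been seen. There were 58 cells with *CD8B*, 18 without *CD8B* but with *TRDV3* or *TRGV9*, 32 with *CD4* mRNA and neither of these, and 75 with none of these. At a median of 3095 UMIs per cell a gene can be missed, so the last set can hold cells of the other kinds. The median CD4 tag was 70 UMIs in the *CD8B* set, 59.5 in the *TRDV3* or *TRGV9* set, 167.5 in the set with *CD4* mRNA and 148 in the last.

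Cells of the *TRDV3* or *TRGV9* set had *PRF1* at 648 CPM (458 to 889) against 166 (115 to 232) in the *CD8B* set, *KLRB1* at 1261 (991 to 1584) against 220 (160 to 294), *TYROBP* at 989 (751 to 1278) against 152 (103 to 215), and *GZMK* at 1108 (855 to 1412) against 464 (376 to 568). Their *CD8A* was at 222 CPM (118 to 379) against 684 (576 to 807), and their median CD8 tag 532.5 against 1459.5. *ZBTB16*, which encodes PLZF, a factor of innate-like T cells, was detected in 5 of these 18 cells and in 2 of the 58 cells with *CD8B*. *TRAC* had a UMI in 14 of the 18 cells, and *CD3D* in 16.

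The set with *CD4* mRNA had *GZMB* at 3636 CPM (3260 to 4043) against 1403 (1245 to 1575) in the *CD8B* set, and *CX3CR1* at 309 (207 to 444) against 29.3 (10.8 to 63.8). *CD40LG*, a gene of helper T cells, was in 10 of the 32 cells and in 0 of the 58 with *CD8B*. *CTSW* was at 64.0 CPM (23.5 to 139) against 821 (702 to 955), and *CMC1* and *FGR* had 2 and 0 UMIs. The *CD8B* set in turn held 16 of the 21 cells with *TCF7* and 13 of the 25 with *CCR7*, genes of naive and memory cells. These 2 genes and *LEF1* were at 103, 132 and 88.0 CPM in that set.

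**Figure D5:**
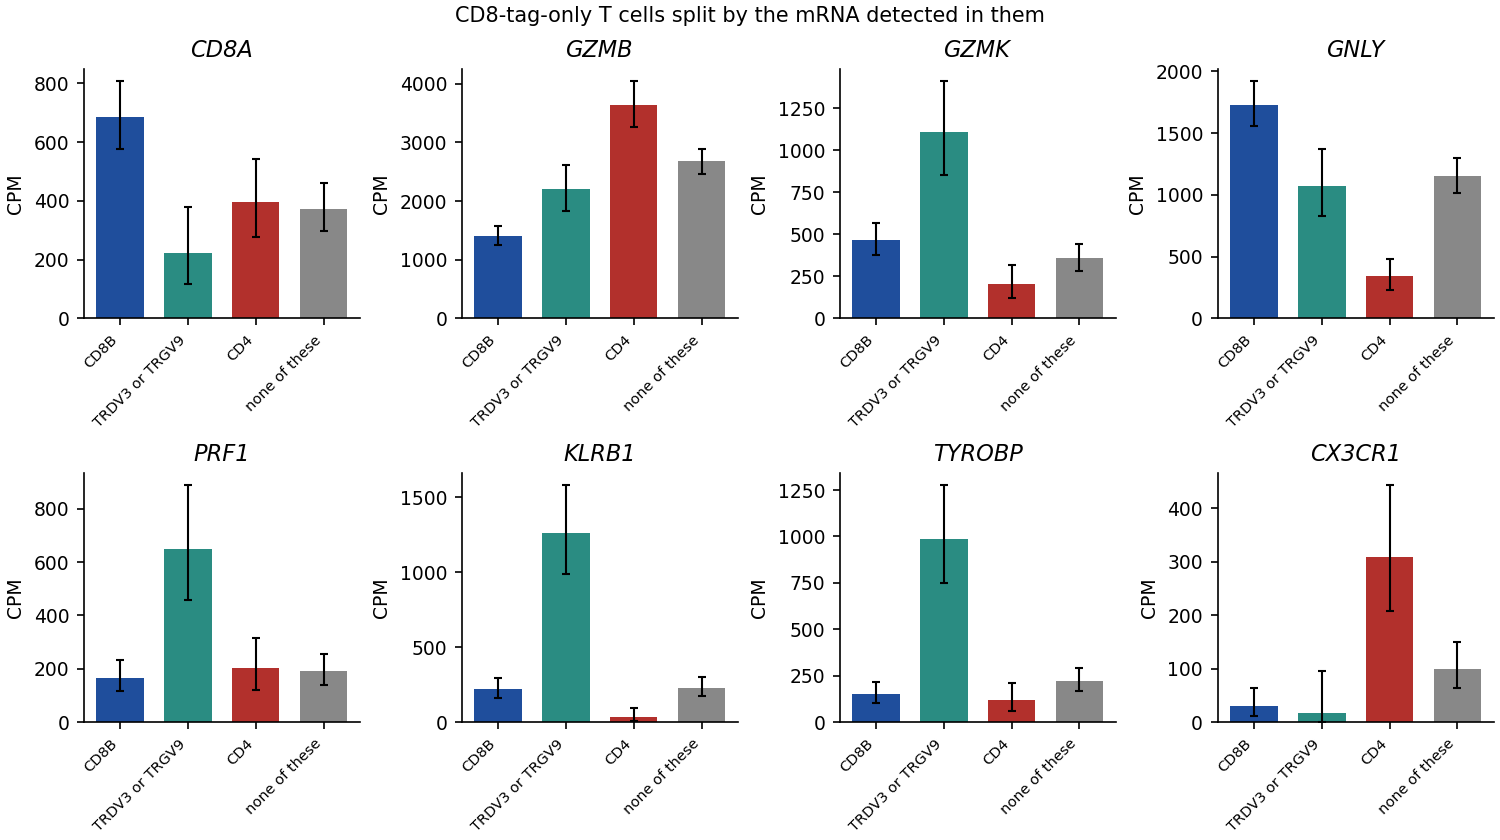
Level (CPM) of 8 genes in CD8-tag-only T cells split by detected mRNA, in 58 cells with *CD8B*, 18 others with *TRDV3* or *TRGV9*, 32 others with *CD4* mRNA and 75 with none of these. Bars are summed counts and lines exact Poisson 95% intervals. *PRF1*, *KLRB1*, *TYROBP* and *GZMK* are highest in the *TRDV3* or *TRGV9* set, and *GZMB* and *CX3CR1* in the set with *CD4* mRNA.

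Genes of naive and memory cells were mostly below their level in cells with both tags as a whole. They summed to 1983 CPM against 2678, but to 1742 in the 557 cells with both tags just above the CD4 limit. Of 9 compared, 0 were at least 2-fold different on the log2 of (CPM + 10) scale, beside 1.13% higher and 0.609% lower of all genes. On that scale 2 lay above 0 and the median was -0.58. *IL7R*, the gene of a survival cytokine receptor, was at 707 CPM (640 to 778) against 1211 (log2 ratio -0.78, -0.92 to -0.64), and in 61.2% of cells against 88.6% (thinned 50.6% and 79.6%). *CCR7* was at 85.2 CPM against 140, *TCF7* at 44.3 against 84.3 and *LEF1* at 49.4 against 104. *KLF2*, a factor of quiescence and of exit into blood, was at 429 against 417. Of 12 helper and regulatory genes, 5 were at 0 in the 183 cells (*CCR4*, *CXCL13*, *CXCR5*, *IL21* and *PTGDR2*), and 3 passed the filter, 1 of them at least 2-fold lower, beside 0.609% of all genes. That gene, *CCR6*, a chemokine receptor of Th17 cells and B cells, had 6 UMIs, 10.2 CPM (3.75 to 22.2), against 34.2, and reached the filter through the cells with both tags. *CXCR5*, a receptor of follicular helper cells, had 0 UMIs against 288 in cells with both tags, where 3 counts allow a log2 ratio of -1.74 or less.

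The 15 named genes lowest by the same measure were *ADAM19*, *CCDC50*, *TRBV7-2*, *IGHM*, *MAMU-DRA*, *TRBV5-1*, *EGR1*, *TRAV21*, *CTSL*, *GPR183*, *CD79A*, *DPP4*, *CTSH*, *SUSD3* and *BIRC3*. Apart from *GPR183*, *MAMU-DRA* and *DPP4*, they were below 20 CPM in the CD8-tag-only cells and reached the level filter through the cells with both tags. Several of them rest on the comparison cells, since 113 of the 3592 cells with both tags (3.15%) had a UMI of *MS4A1* or *CD79B* and the rule took such cells out of the CD8-tag-only group alone. Without these 113 cells the log2 ratio of *IGHM*, the immunoglobulin heavy chain gene, was 1.52 and not -3.09, that of *MAMU-DRA*, an MHC class II gene, 0.21 and not -2.00, and that of *EGR1*, an immediate-early gene, 0.85 and not -2.33. *GPR183*, a receptor for oxysterols on lymphocytes, was at 104 CPM (79.5 to 133) against 274, a log2 ratio of -1.40 with and -1.36 without them, and *DPP4*, the gene of CD26, at 35.8 CPM against 102, with -1.51 and -1.53. *ADAM19* had 2 UMIs against 666, a ratio of -3.54 (-6.58 to -1.68). Receptors of inhibition were within 2-fold, with *PDCD1*, the gene of PD-1, at 133 CPM against 116 and *TIGIT* at 114 against 63.5.

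Of 12 genes of the TCR complex and its signalling, among them *CD247*, *LCK* and *ZAP70*, 0 were at least 2-fold different, with a median of 0.21. Of all genes 1.13% were as much higher and 0.609% lower, so counts of 0 in short lists are near that background. The same was true of 10 trafficking genes compared (median 0.26) and 4 checkpoint and costimulatory receptors (median 0.40). Of 4 cytokine receptors 1 was at least 2-fold higher (1.13% of all genes), *IL2RB*, with a median of -0.13, and of 4 NK receptors and adaptors 1, *TYROBP*, with a median of 0.67. Both innate-like genes compared, *KLRB1* and *MAP3K8*, which encodes a kinase, were at least 2-fold higher, beside 1.13% of all genes. That list summed to 409 CPM against 215, with 641 CPM in the lower and 200.5 in the upper CD4 tag range, and to 241 in the 557 cells with both tags just above the limit. Among the checkpoint genes too low to compare, *CRTAM*, a receptor of activated cytotoxic cells, had 11 UMIs in the 183 cells, 18.7 CPM (9.35 to 33.5), against 2.02, a log2 ratio of 3.22 (2.09 to 4.23).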

How the data were processed

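The authors deposited UMI counts of each gene and tag in each cell barcode, without normalisation. Per the labels, reads were aligned to Mmul_10 using STAR 2.5.1b within Cell Ranger 3.1.0 (annotation release: not given in the sources used here). The counts hold 35432 genes, of which 23817 carry a symbol and 675 more were named from a table of gene IDs, and 2 tags in 7923 barcodes, all with gene and tag UMIs. Symbols were looked up in the RefSeq annotation of Mmul_10 to give gene positions. Members, gene lists and tests were chosen with earlier results of these data known. Mitochondrial UMIs were those of 13 named genes and 2 unnamed features of the rule.

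Counts were summed per group of cells, as CPM with exact Poisson intervals. Ratios have exact intervals from the binomial split, and shares Clopper-Pearson intervals, at 95%. All cover counting error only. Where a group had 0 counts, a bound uses 3 counts over the group. For the count of genes past 2-fold, 10 CPM was added and a mean of 20 CPM required, on the log2 (CPM + 10) scale, which understates changes of low genes. Named genes were those of the lists, KIR, killer lectin-like and TCR features by symbol, and the 15 named genes highest and lowest by this measure. Genes of a list without a matching symbol, such as ZNF683, GZMH and CD27, were not analysed here. With 1 sample there is no test.

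No doublet caller was run, and an alternative leaves out the 5% of QC cells with most UMIs. Other alternatives were a mitochondrial limit of 10% or named genes alone, 0.5 times the CD4 tag limit, 2 times the CD8 tag limit, at least 2 CD3E UMIs, no B cell genes in either group, means over cells, thinning to 2000 UMIs, leaving out the most frequent TRBV segment, other pseudocounts and other level filters. The computation was tested on simulated data. Python 3.11.15, numpy 2.4.6, scipy 1.17.1, pandas 2.3.3 and matplotlib 3.10.9 were used.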

Additional observations from a re-analysis of the deposited data

How the results depend on the processing

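Of 1215 ratios of 111 named genes under 11 other settings of cells, 1081 moved by less than the counting interval, 126 moved beyond it with the same sign and 8 reversed. Halving the CD4 tag limit (82 cells) and doubling the CD8 tag limit (92 cells against 1315) moved several results. With the former the share of *CD3E*+ cells was 1.12%, the log2 ratio of *EOMES* 3.30, of *GZMB* 0.50, of *CD8B* 5.23 and of *CD8A* 1.26, and *CX3CR1* (-0.88) and *THEMIS* (-0.057) turned lower. With the latter the share was 1.26%, *CD4* mRNA -3.15 and summed KIR genes 5.18, and *CX3CR1* (-0.47) and *TRBV29-1* (-1.51) turned lower. The *GZMB* ratio of 1.03 was 0.95 with at least 2 *CD3E* UMIs, 0.90 as a mean over cells, 0.89 without the cells of most UMIs, 0.93 thinned and 0.91 without the 36 members that carry *CD4* mRNA, an alternative chosen after seeing the data in which *TRBV29-1* was at -0.50. *CD8B* was 4.70 without the cells of most UMIs and 4.79 thinned. Without B cell genes in either group, *IGHM* (1.52), *EGR1* (0.85) and *MAMU-DRA* (0.21) turned higher. The 83 genes past 2-fold were 144 and 149 with the changed CD4 and CD8 limits, 149 and 26 with 1 and 50 CPM added, and 127 and 40 with no level filter and one of 50 CPM. The percentage of these that were higher was 65.1%, and 54.9% and 54.4% with the changed tag limits, 88.5% with 50 CPM added, 52.8% with no level filter and 77.5% with one of 50 CPM. The causes were not tested. With 1 animal, 183 cells and a median of 3095 UMIs per cell, genes with few UMIs and the sets of cells built on them are uncertain, and variation between animals is unknown. No paired analysis was possible because there is 1 sample.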

Other observations

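The same tag range held 20 QC cells without a *CD3E* UMI, with a median of 3927.5 gene UMIs. Of these, 11 had a UMI of *CD79A*, 11 of *CD79B* and 11 of *MS4A1*, which mark B cells, with 85, 71 and 108 UMIs. *GNLY* and *GZMB* were each found in 8 of the 20 cells, with 251 and 215 UMIs, *KLRD1* in 7, *TYROBP* in 9, *FCER1G* in 7 and *FCGR3*, the Fc receptor gene of NK cells, in 3. *NCAM1* was at 0, *CD8A* was found in 6 cells, *CD8B* in 1 and *TRAC* in 1. *KIR3DH* had 9 UMIs in 2 cells. *CD3D* had a UMI in 5 cells and *CD3G* in 2.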
